A study of Mus musculus with 9 samples.

Results

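Immediate early genes are transcribed within minutes of neuronal activity, before any new protein is made. The group described here is 10 such genes in hippocampal cells of injured and sham-operated mice, chosen by name from the 55421 genes counted: the zinc finger transcription factor genes Egr1, Egr2, Egr3 and Egr4, the orphan nuclear receptor genes Nr4a1, Nr4a2 and Nr4a3, and the activity-dependent genes Arc, Npas4 and Homer1. All 10 symbols matched 1 Ensembl gene each, and all 10 passed the filter on low counts. The measured groups were Tmsb4x conditional knockout mice after mild traumatic brain injury (knockout mTBI, n = 3 libraries), wild-type mice after the same injury (wild-type mTBI, n = 3), and wild-type mice labelled as sham-operated (n = 3). The injury was 1 mild controlled cortical impact, and sham mice had the surgery without it. All mice carried a neuronal tdTomato reporter, a red fluorescent protein. The hippocampus was digested with warm trypsin, and live red cells were collected by flow sorting. The labels name neither the Cre driver, the deleted part of Tmsb4x, the age and sex of the mice nor the time after injury. There was no knockout group without injury, so an effect of genotype could not be separated from its dependence on injury.

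In the hippocampus, synaptic calcium entry activates CaM kinases and the ERK pathway. These act on CREB, which binds the cAMP response element (CRE), and on SRF with its ELK partners, which bind the CArG box. The encoded EGR and NR4A proteins then regulate later genes, while ARC and HOMER1 act at the synapse itself. Egr1 and Arc are widely used to mark recently active neurons. Here the RNA came from cells after digestion and sorting. Expression in the animal and expression during that preparation therefore cannot be told apart.

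The knockout label was checked first. Tmsb4x, the deleted gene, stood at 1.83, 2.79 and 2.77 CPM (a gene's counts relative to the library total, with composition scaling) in knockout mTBI, 899.5, 553 and 297 in wild-type mTBI, and 2.73, 1.68 and 2.23 in labelled wild-type sham. The labelled sham libraries held Tmsb4x at the level of the knockout, which goes against their label, and every direction against them below is given for libraries so labelled. They were also more alike than the others: the median SD of log2 CPM, taken over the 17391 genes averaging 20 or more counts, was 0.14 in knockout mTBI, 0.20 in wild-type mTBI and 0.07 in labelled sham. Xist, the RNA of the inactive X chromosome, reached 835 CPM in wild-type mTBI replicate 3 and no more than 0.892 CPM elsewhere. Totals ran from 36452443 to 39590872 counts per library. Markers of neurons summed to between 7403 and 8644 CPM over the 9 libraries, but those of astrocytes (3788 to 4875 CPM) and oligodendrocytes (4550 to 8326 CPM) were high too, in cells that the labels give as sorted neurons. In such bulk samples, fewer cells of a type and less RNA per cell cannot be told apart.

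The members' promoters show what these genes share in sequence. RefSeq starts on mouse GRCm38.p6 were taken for 7 members, 12 starts in all. The 250 bases before each start were searched for the CRE core TGACG on both strands and for TATAAA or TATATA. The CArG box was searched in its strict form CCWWWWWWGG, where W is A or T, and near matches were not counted. Shown here are Nr4a2 (chr2:57124004-57124253, minus strand) and Homer1 (chr13:93303507-93303756, plus strand), the pair with the called differences below, beside Nr4a1 (chr15:101266596-101266845, plus strand) and Egr4 (chr6:85513590-85513839, minus strand), both of which differed between the wild-type mTBI libraries. Capitals mark the CRE core, as TGACG or its complement CGTCA, and each sequence runs 5′ to 3′ along its gene.
Nr4a2: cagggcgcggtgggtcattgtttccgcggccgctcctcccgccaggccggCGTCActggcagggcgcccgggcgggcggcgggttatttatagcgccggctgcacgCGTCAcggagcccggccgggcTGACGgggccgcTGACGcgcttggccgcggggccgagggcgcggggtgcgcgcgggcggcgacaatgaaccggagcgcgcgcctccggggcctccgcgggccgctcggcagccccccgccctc
Homer1: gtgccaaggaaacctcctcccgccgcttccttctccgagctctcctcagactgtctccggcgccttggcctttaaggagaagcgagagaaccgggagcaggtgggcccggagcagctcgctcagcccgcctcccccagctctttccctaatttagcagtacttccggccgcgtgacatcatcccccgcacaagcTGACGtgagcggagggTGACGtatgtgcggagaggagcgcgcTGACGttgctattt
Nr4a1: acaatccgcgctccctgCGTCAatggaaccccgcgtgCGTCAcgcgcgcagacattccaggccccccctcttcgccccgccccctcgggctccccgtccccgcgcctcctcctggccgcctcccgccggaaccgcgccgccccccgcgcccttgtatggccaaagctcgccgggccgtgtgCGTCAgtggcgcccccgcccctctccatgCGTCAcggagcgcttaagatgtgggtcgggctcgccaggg
Egr4: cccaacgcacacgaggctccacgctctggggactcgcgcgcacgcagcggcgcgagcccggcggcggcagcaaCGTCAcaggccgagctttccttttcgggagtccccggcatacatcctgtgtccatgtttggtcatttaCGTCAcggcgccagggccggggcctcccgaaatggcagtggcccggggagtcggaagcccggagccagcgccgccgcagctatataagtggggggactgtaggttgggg

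**Figure D1:**
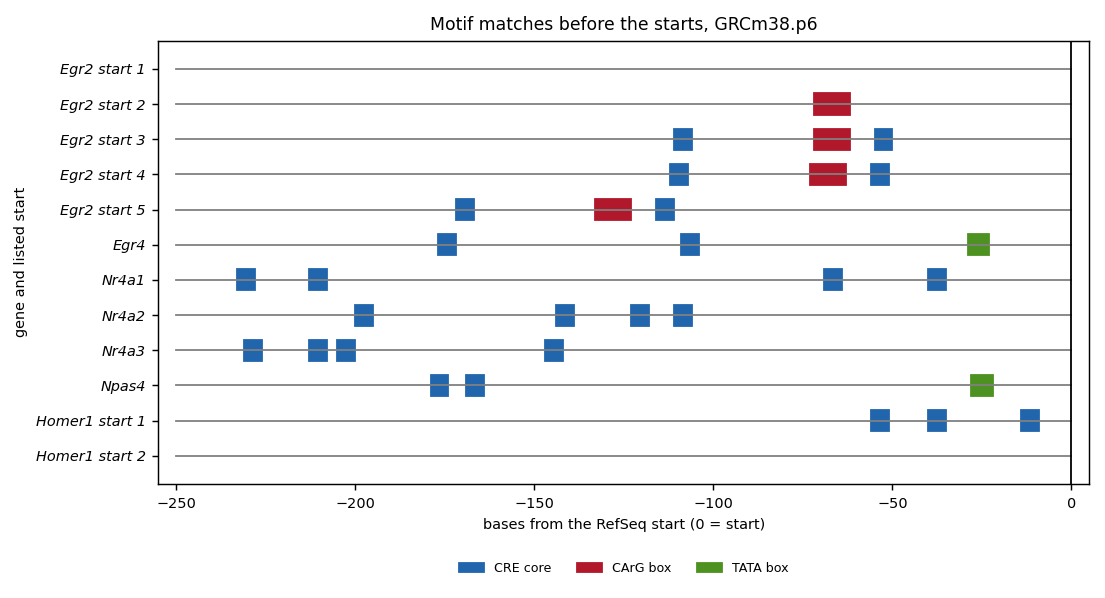
Matches to the CRE core, the CArG box and the TATA letters in the 250 bases before each of the 12 listed RefSeq starts of 7 members; the horizontal axis is the distance in bases from the start. All 7 genes hold CRE cores before at least 1 start, 4 of them in each Nr4a gene, and the strict CArG box appears at Egr2 alone.

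All 7 members had at least 1 start with a CRE core, as 9 of the 12 starts did. Nr4a1, Nr4a2 and Nr4a3 held 4 cores each, Homer1 held 3 at its first start, and Egr4, Npas4 and the last 3 starts of Egr2 held 2. Those 3 Egr2 starts lie close together and share the same cores and the same CArG box, so the counts of starts include these sites repeatedly. Across all 32851 starts of the RefSeq table, 17.8% held the core and 0.688% held at least 3. The strict CArG box was found at Egr2 only among these 7 genes, before 4 of its 5 starts, against 1.47% of all starts. TATAAA or TATATA stood before Egr4 and Npas4, ending 24 and 23 bases before the start, against 11.5% of all starts. All 250 bases of the Npas4 window and 152 of the Nr4a3 window are annotated as exon. No start of Egr1, Egr3 or Arc was searched, so nothing is said of their promoters. These matches describe letters, and neither binding nor use was measured.

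Per length and over all libraries, Arc was the most abundant member, at 25.7 ± 9.44 RPKM (CPM per kilobase of exon; SD, n = 9 libraries of all groups). Egr1 followed at 21.0 ± 6.97, Egr3 at 18.9 ± 1.96, Nr4a3 at 16.1 ± 1.48, Nr4a1 at 14.8 ± 5.00 and Nr4a2 at 12.0 ± 1.97 RPKM. In that order each gene overlapped the next within 1 SD. By group, Arc led with 22.8 ± 3.14 RPKM in knockout mTBI and 34.6 ± 12.8 RPKM in wild-type mTBI (SD, n = 3 each), while in labelled sham Egr3 at 20.2 ± 0.121 RPKM stood above Arc at 19.8 ± 0.374 and Egr1 at 19.6 ± 0.669 RPKM. Homer1 at 8.24 ± 1.36, Egr4 at 5.17 ± 1.23, Npas4 at 2.15 ± 0.718 and Egr2 at 0.534 ± 0.484 RPKM each lay clear of the gene above within 1 SD. Egr2, best known from hindbrain patterning and myelinating Schwann cells, was thus the scarcest, with 24 to 220 counts per library.

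**Figure D2:**
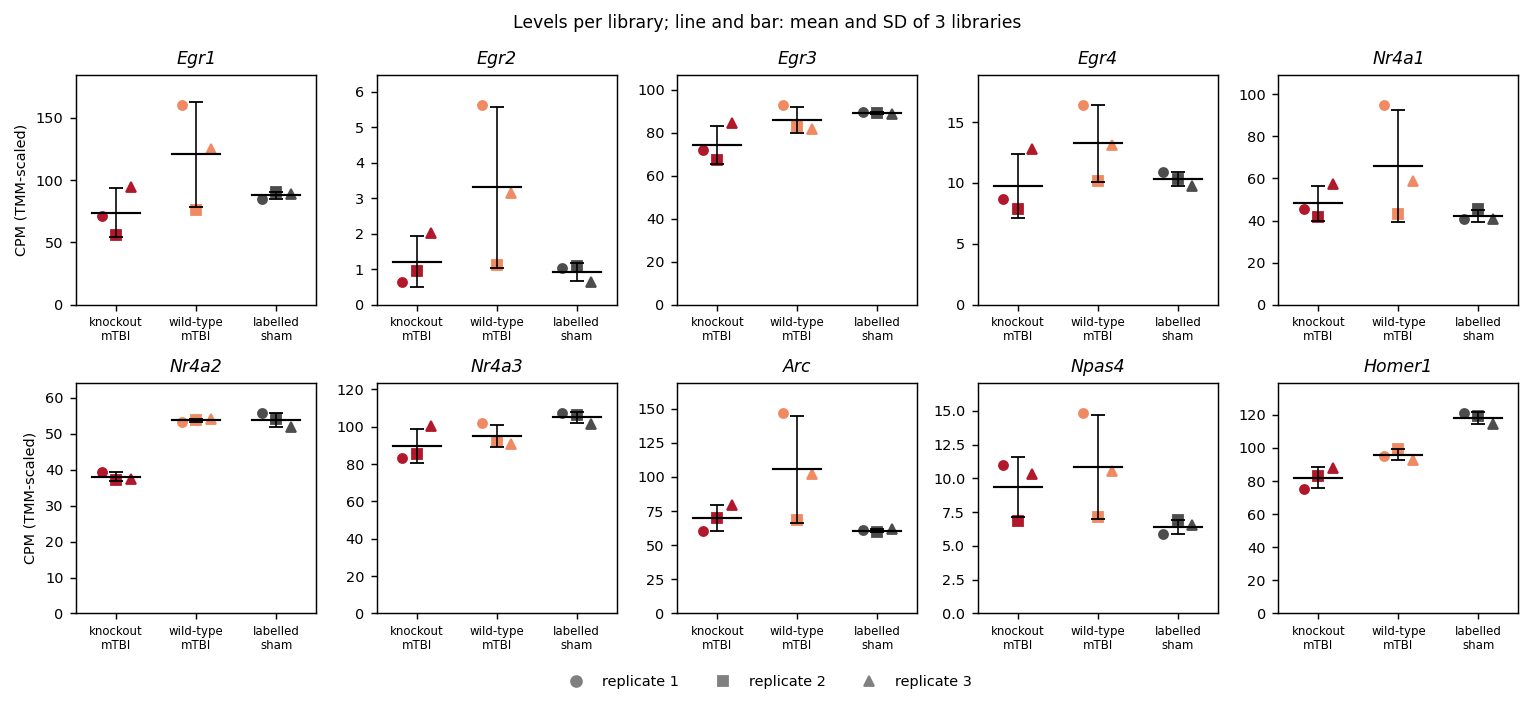
Level of each of the 10 genes in CPM by group; each symbol is 1 library, the line and bar are the mean and SD of 3 libraries, and every vertical axis starts at 0. Nr4a2 is near 38 CPM in all 3 knockout libraries and between 51.8 and 55.7 CPM in the other 6, and Arc, Egr1 and Nr4a1 are highest in wild-type mTBI replicate 1.

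Nr4a2 and Homer1 were the members with called differences, and both were lower in knockout mTBI. Nr4a2 (ENSMUSG00000026826, GRCm38 chromosome 2, 57106830 to 57124003, minus strand) encodes NURR1, an orphan receptor that dopamine neurons need to form and that CREB induces in the hippocampus. It stood at 39.4, 37.2 and 37.4 CPM in knockout mTBI, at 53.4, 53.9 and 54.0 CPM in wild-type mTBI, and at 55.7, 54.2 and 51.8 CPM in labelled sham. The 3 knockout libraries lay below all 6 others, and the wild-type mTBI values fell within the range of the labelled sham ones. Against labelled sham, Nr4a2 was 1.42-fold lower in knockout mTBI (log2 -0.50, SE 0.07, adjusted p = 0.0214 in edgeR's quasi-likelihood test). Against wild-type mTBI it had the same size, log2 -0.50 (SE 0.07), and missed the threshold at adjusted p = 0.0575, the fourth smallest p of 20032 genes. Wild-type mTBI and labelled sham averaged 53.8 ± 0.364 and 53.9 ± 1.96 CPM (SD, n = 3 each; log2 -0.0041, SE 0.07, adjusted p = 0.985). Its SD of log2 CPM in wild-type mTBI, 0.0098, was below that of all but 0.265% of the 17391 genes.

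Homer1 (ENSMUSG00000007617, chromosome 13, 93299635 to 93405129, plus strand) encodes a postsynaptic scaffold that ties metabotropic glutamate receptors to SHANK and to the IP3 receptor. Activity induces its short form, Homer1a, while the long forms are constitutive, and a count per gene adds the forms together. It stood at 75.3, 83.2 and 87.7 CPM in knockout mTBI, at 95.0, 99.6 and 92.9 CPM in wild-type mTBI, and at 121, 119 and 114 CPM in labelled sham. No group overlapped another, with knockout mTBI lowest and labelled sham highest. Knockout mTBI was 1.44-fold lower than labelled sham (log2 -0.53, SE 0.07, adjusted p = 0.0299, edgeR). Wild-type mTBI differed from labelled sham by log2 -0.30 (SE 0.07, adjusted p = 0.108), and knockout mTBI from wild-type mTBI by -0.22 (SE 0.07, adjusted p = 0.732), and neither passed.

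In knockout mTBI against labelled sham, 2 of the 10 members were called, both lower, where 0.0699% of the 20032 genes tested were called and 0.02% were called lower. The lower ones were 4 genes in all, the others being Pura (log2 -1.16) and the predicted gene Gm44846 (log2 -3.78), named after their values were seen. For Nr4a2 and Homer1 the exact permutation test, two-sided with 3 libraries a side, gave p = 0.1, the smallest it allows. Both calls were lost when any 1 labelled sham library was left out. Without sham replicate 1, 2 or 3, adjusted p was 0.258, 0.191 and 0.132 for Nr4a2 and 0.301, 0.262 and 0.2 for Homer1. Without knockout mTBI replicate 3 it was 0.131 for Nr4a2 and 0.0781 for Homer1, and Homer1 also had 0.0737 without knockout mTBI replicate 2. The fold changes moved little in these fits, to between log2 -0.53 and -0.48 for Nr4a2 and between -0.58 and -0.47 for Homer1 over all alternatives. Nr4a2 against wild-type mTBI ranged from log2 -0.53 to -0.48 with adjusted p between 2.92e-07 and 0.928. It was called without wild-type mTBI replicate 1 (adjusted p = 0.0342), while the fit of the 6 injured libraries alone gave 0.928.

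**Figure D3:**
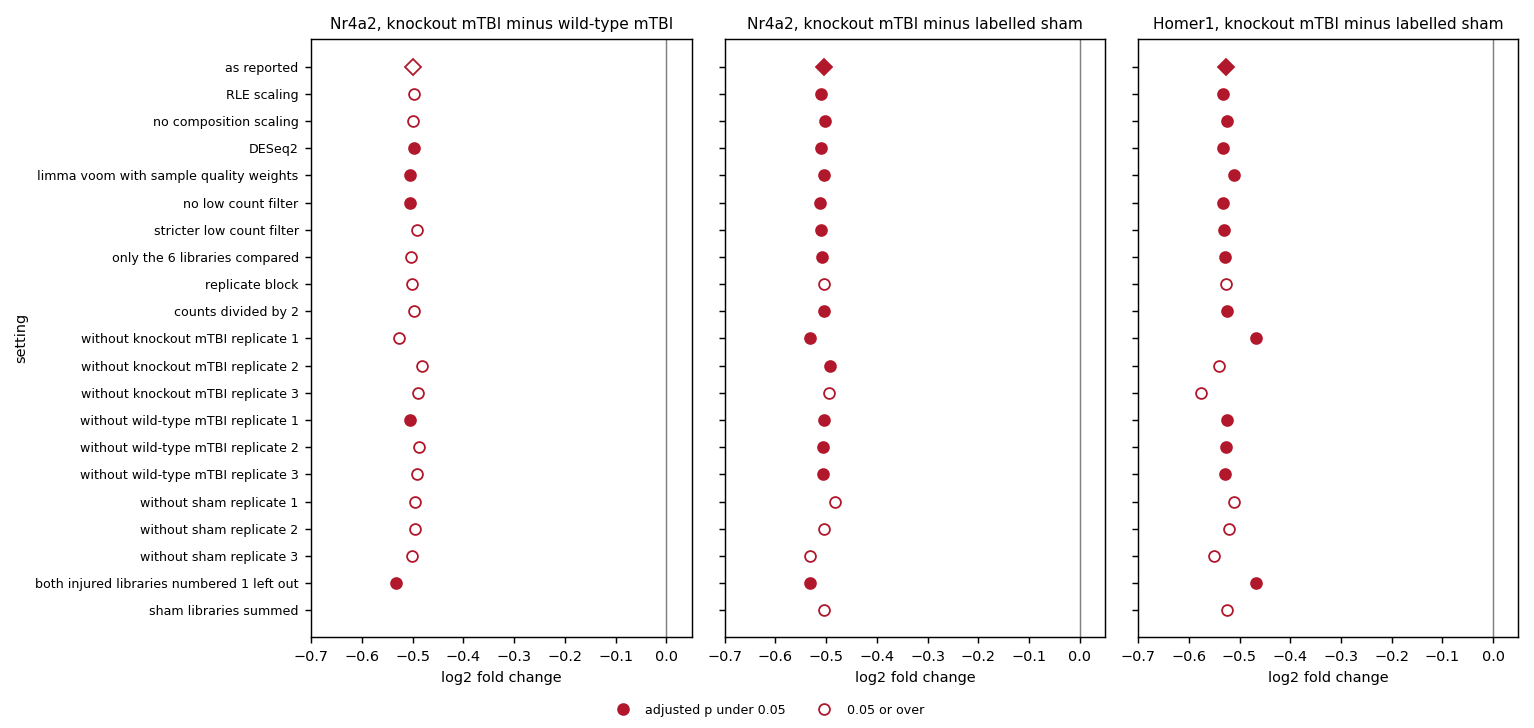
Log2 fold change of Nr4a2 and Homer1 in knockout mTBI under each processing setting; filled symbols have an adjusted p under 0.05 and the diamond is the value as reported. The changes stay between log2 -0.58 and -0.47 while the calls come and go, and no setting without a labelled sham library keeps either call against labelled sham.

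Egr3 and Nr4a3 had small differences of the same direction, and neither passed. Egr3 (chromosome 14, 70077203 to 70082614, plus strand) encodes a factor needed for muscle spindles and acts downstream of synaptic activity. Its levels were 71.8, 67.0 and 84.2 CPM in knockout mTBI, against 93.0, 83.1 and 81.6 CPM in wild-type mTBI, and 89.6, 89.2 and 88.6 CPM in labelled sham. Nr4a3 (chromosome 4, 48045153 to 48086447, plus strand), the NOR1 receptor gene, stood at 83.3, 85.4 and 100.5 CPM in knockout mTBI, against 102, 92.5 and 90.8 CPM in wild-type mTBI, and 107, 106 and 102 CPM in labelled sham. For both genes the knockout libraries lay below all labelled sham libraries and overlapped the wild-type mTBI ones. Knockout mTBI minus labelled sham was log2 -0.26 (SE 0.09, adjusted p = 0.487) for Egr3 and -0.23 (SE 0.09, adjusted p = 0.539) for Nr4a3. Wild-type mTBI minus labelled sham was log2 -0.05 (SE 0.09, adjusted p = 0.826) for Egr3 and -0.14 (SE 0.09, adjusted p = 0.485) for Nr4a3, with overlapping groups. Together with Nr4a2 and Homer1, 4 of 10 members lay below labelled sham without overlap, where 8.4% of all genes did, and none lay above it, where 8.75% did. The same 4 had an unadjusted p under 0.05 and a lower level, as 2.62% of all genes had, and no member was higher by that measure, as 4.58% were.

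The other 6 members, Egr1, Egr2, Egr4, Nr4a1, Arc and Npas4, were highest in wild-type mTBI by mean, but with a wide spread between its libraries. Arc (chromosome 15, 74669083 to 74672570, minus strand), whose protein removes AMPA receptors from synapses, stood at 60.1, 69.9 and 79.3 CPM in knockout mTBI, at 147, 68.5 and 102 CPM in wild-type mTBI, and at 60.8, 59.4 and 61.7 CPM in labelled sham. Every wild-type mTBI library was above every labelled sham library, and replicate 2 was the nearest to them, while knockout mTBI overlapped both groups. Wild-type mTBI minus labelled sham was log2 0.80 (SE 0.21, adjusted p = 0.135), and without wild-type mTBI replicate 2 it was log2 1.02 and called (adjusted p = 0.0255).

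Egr1 (ENSMUSG00000038418, chromosome 18, 34859823 to 34864984, plus strand), the Zif268 gene needed for late long-term potentiation, stood at 71.4, 55.6 and 94.7 CPM in knockout mTBI, against 161, 76.3 and 125 CPM in wild-type mTBI, and 84.6, 90.5 and 88.5 CPM in labelled sham. Wild-type mTBI spanned both sides of labelled sham, with replicate 2 below it. Egr2 (chromosome 10, 67535475 to 67542188, plus strand) stood at 0.654, 0.946 and 2.03 CPM in knockout mTBI, against 5.64, 1.12 and 3.16 CPM in wild-type mTBI, and 1.04, 1.10 and 0.628 CPM in labelled sham. Its wild-type mTBI libraries were above all labelled sham ones, replicate 2 only just. Egr4 (chromosome 6, 85511121 to 85513589, minus strand), a family member found mainly in neurons, was at 8.68, 7.85 and 12.8 CPM in knockout mTBI, against 16.4, 10.1 and 13.2 CPM in wild-type mTBI, and 10.9, 10.3 and 9.71 CPM in labelled sham, with overlap between all groups.

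Nr4a1 (chromosome 15, 101254269 to 101274795, plus strand), the NUR77 receptor gene, stood at 45.5, 41.6 and 57.4 CPM in knockout mTBI, against 95.2, 43.3 and 58.9 CPM in wild-type mTBI, and 40.7, 45.4 and 40.6 CPM in labelled sham. Replicates 1 and 3 of wild-type mTBI were above labelled sham and replicate 2 was within it. Npas4 (chromosome 19, 4984355 to 4990316, minus strand), a bHLH-PAS factor that calcium entry induces and that builds inhibitory synapses, was at 11.0, 6.86 and 10.3 CPM in knockout mTBI, against 14.8, 7.11 and 10.6 CPM in wild-type mTBI, and 5.87, 6.89 and 6.54 CPM in labelled sham. Wild-type mTBI did not overlap labelled sham, and 1 knockout library lay within the labelled sham range.

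**Figure D4:**
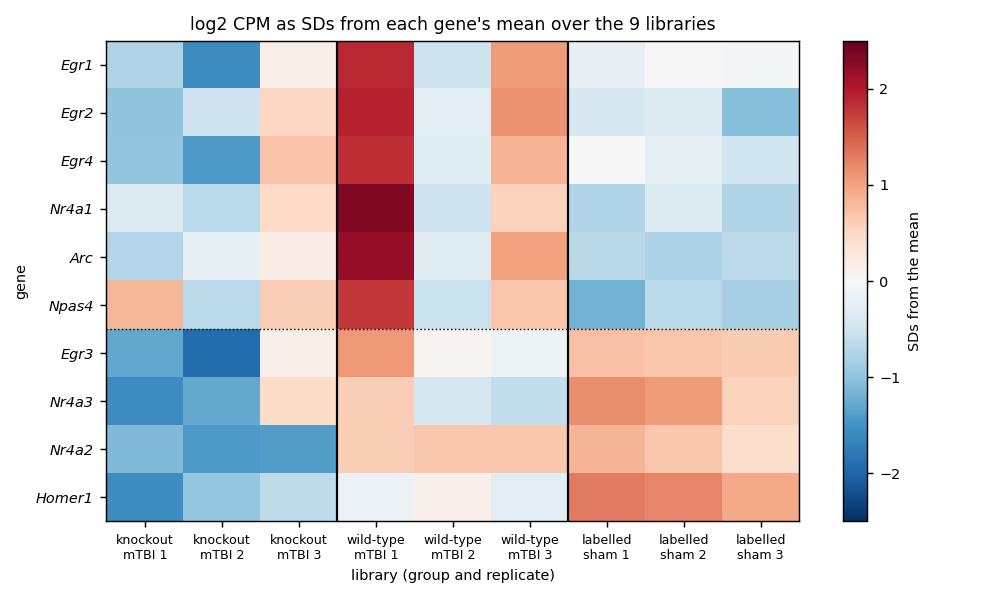
Log2 CPM of each gene in each library, as SDs from that gene's mean over the 9 libraries, with groups separated by solid lines. The upper 6 genes are highest in wild-type mTBI replicate 1, then replicate 3, and lowest of that group in replicate 2; the lower 4 are lower in knockout mTBI than in labelled sham.

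These 6 genes, set apart after their values were seen, had the same order in wild-type mTBI: replicate 1 above replicate 3 above replicate 2. Of the 10 members, 7 were highest of all 9 libraries in wild-type mTBI replicate 1. In knockout mTBI, 8 of 10 were highest in replicate 3. The shares of all genes that were highest in these libraries were not computed, so the counts only describe the members. The ratio of the highest to the lowest library within wild-type mTBI was 2.11 for Egr1, 5.03 for Egr2, 2.20 for Nr4a1, 2.14 for Arc and 2.08 for Npas4. In the labelled sham libraries these ratios were 1.07, 1.75, 1.12, 1.04 and 1.17, and in wild-type mTBI the ratio for Nr4a2 was 1.01. The SD of log2 CPM in wild-type mTBI lay above that of 91.1% to 99.1% of genes for these 5 members. The upper end was Egr2, the scarcest member, which also lay above 96.9% of genes in knockout mTBI and 94.8% in labelled sham. The others of the 5 lay above 64.1% to 84.4% in knockout mTBI and 15.3% to 66.4% in labelled sham. Egr4, the other of the 6, had a ratio of 1.62 in wild-type mTBI and 1.12 in labelled sham, and an SD above that of 78.4% of genes in wild-type mTBI. In that group the SDs of Egr3, Nr4a3 and Homer1 lay above those of only 21.3%, 17.7% and 6.97% of genes. Wild-type mTBI replicate 1 also had the largest share of mitochondrially encoded counts, 5.57% against 4.32% to 5.16% in the other 8 libraries, and the fewest genes with a count, 25981 against 26413 to 26857. The part of these library differences in the results was not tested.

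Member by member, the likeness of profiles over the 9 libraries was measured as the mean absolute difference of z-scored log2 CPM, where 0 is identical. Egr1 and Egr4 were each other's nearest member at 0.255, as were Egr2 and Arc at 0.273, and Nr4a1 was nearest to Arc at 0.274. Npas4 was nearest to Nr4a1 at 0.315. Egr3 and Nr4a3 paired at 0.384, Homer1 was nearest to Nr4a3 at 0.419, and Nr4a2 to Egr3 at 0.494. Homer1 and Npas4 were farthest apart at 1.52. Among 17381 other genes, those nearest to the mean profile of the 10 members were Aspdh at 0.224, Dcun1d3 at 0.23, Tmeff1 at 0.235, Klf16 at 0.259 and Mzt2 at 0.26, against a median of 1.02 over all genes.

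In wild-type mTBI against labelled sham, no member was called by edgeR, where 0.509% of the 20032 genes were and 0.125% were called lower. By an unadjusted p under 0.05, Egr2, Nr4a1, Arc and Npas4 were higher and Homer1 lower, which is 4 and 1 of 10 against 7.45% and 5.79% of all genes. DESeq2 called 349 of the 20032 genes higher and 192 lower, among them Egr2 and Arc higher and Homer1 lower. With voom 466 genes were called higher and 256 lower, and Homer1 was the only member among them. Without the filter on low counts, edgeR called 427 of 34825 genes higher and 249 lower. Egr2, Nr4a1, Arc and Npas4 were among the higher ones (adjusted p = 0.00129, 0.00441, 5.16e-05 and 0.0175). Without both injured libraries numbered 1, edgeR called Homer1 lower (adjusted p = 0.0234), and more genes in all than in the reported fit. The sizes were log2 1.84 (SE 0.55, adjusted p = 0.196) for Egr2, 0.75 (SE 0.25, adjusted p = 0.238) for Npas4, 0.64 (SE 0.23, adjusted p = 0.268) for Nr4a1, 0.46 (SE 0.24, adjusted p = 0.429) for Egr1 and 0.36 (SE 0.20, adjusted p = 0.460) for Egr4. Egr2, Arc and Npas4 lay above labelled sham without overlap, against 12.4% of all genes, and Homer1 below it, against 11.5%. The median over the 10 members was log2 0.41, beside 0.018 over all genes tested. Without wild-type mTBI replicate 1 the change was log2 1.21 for Egr2, 0.49 for Arc, 0.46 for Npas4, 0.28 for Nr4a1, 0.20 for Egr1 and 0.18 for Egr4, and none was called.

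In knockout mTBI against wild-type mTBI, all 10 members had negative changes and none was called by edgeR, where 0.015% of genes were and 0.00998% were called lower. An unadjusted p under 0.05 with a lower level was found for 6 of 10, against 3.35% of all genes: Egr1, Egr2, Egr3, Nr4a2, Arc and Homer1. No member was higher by that measure, where 3.25% of genes were. DESeq2 called 6 of the 20032 genes higher and 12 lower, and voom 1 higher and 3 lower. Nr4a2, lower, was the only member that either tool called. Without the filter on low counts, edgeR called 40 of 34825 genes higher and 28 lower. Egr1, Nr4a2 and Arc were among the lower ones (adjusted p = 0.00665, 0.00514 and 0.0205). Without both injured libraries numbered 1, edgeR called Nr4a2 (adjusted p = 0.0125), and again more genes in all than in the reported fit. Nr4a2 and Homer1 were the 2 members without overlap, where 4.86% of genes lay lower without overlap. Egr2 differed by log2 -1.45 (SE 0.54), Egr1 by -0.71 (SE 0.24) and Arc by -0.60 (SE 0.21), each at adjusted p = 0.732. Nr4a1 differed by log2 -0.45 (SE 0.23), Egr4 by -0.44 (SE 0.20), Egr3 by -0.21 (SE 0.09), Npas4 by -0.21 (SE 0.25) and Nr4a3 by -0.08 (SE 0.09), at adjusted p between 0.732 and 0.815. The median was log2 -0.44 beside 0.0012 over all genes. Without wild-type mTBI replicate 1, the change of Npas4 was log2 0.086, that of Nr4a1 -0.09, of Egr4 -0.25, of Arc -0.29, of Egr1 -0.44 and of Egr2 -0.82. Both comparisons use the wild-type mTBI libraries, so a high library there moves them in opposite directions.

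**Figure D5:**
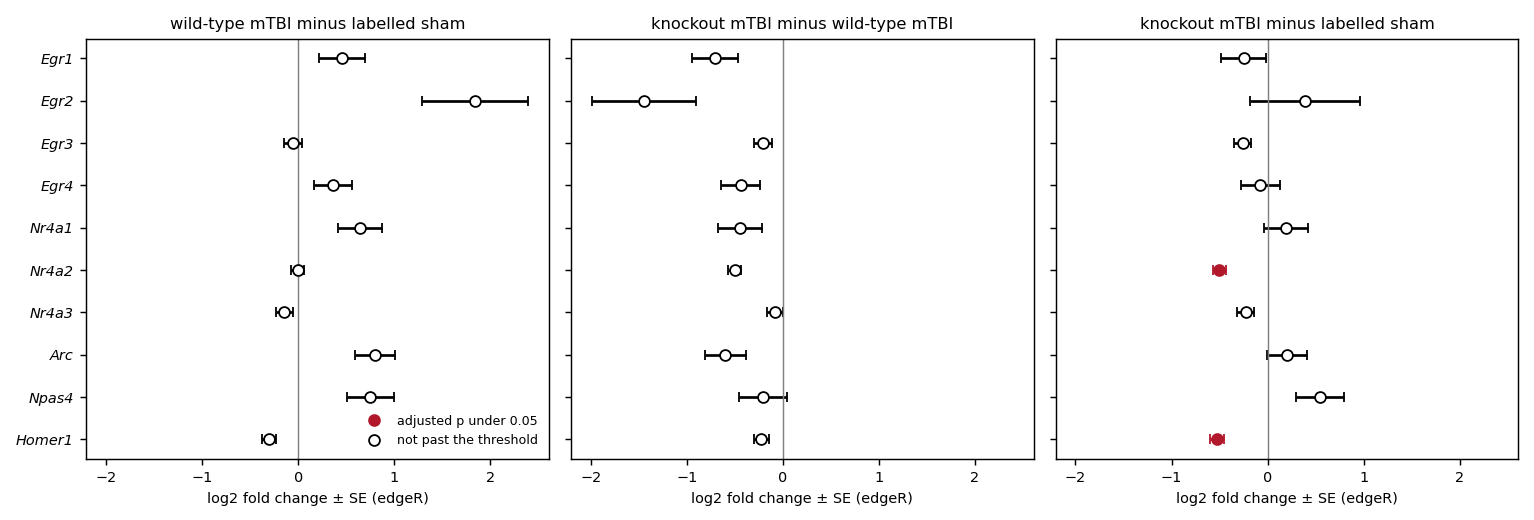
Log2 fold change with its standard error for each member in the 3 comparisons; filled red symbols have an adjusted p under 0.05 in edgeR. Nr4a2 and Homer1 in knockout mTBI minus labelled sham are the 2 filled points, and all 10 points lie left of 0 in knockout mTBI minus wild-type mTBI.

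In knockout mTBI against labelled sham, the remaining 6 members differed by between log2 -0.25 (Egr1, SE 0.24, adjusted p = 0.998) and 0.55 (Npas4, SE 0.25, adjusted p = 0.694). Nr4a1 differed by log2 0.19 (SE 0.23), Arc by 0.20 (SE 0.21), Egr2 by 0.39 (SE 0.57) and Egr4 by -0.08 (SE 0.20), each at adjusted p = 0.999. The median over the 10 was log2 -0.15, beside 0.0099 over all genes. Marker sums of neurons were 7978 to 8496 CPM in knockout mTBI, 7403 to 8518 CPM in wild-type mTBI and 8470 to 8644 CPM in labelled sham. The largest of the 5 neuron markers was Camk2a, which averaged 4389, 3961 and 4641 CPM in that order of groups. Snap25 and Tubb3 were highest in wild-type mTBI by mean. Marker sums of CA1 neurons (2 markers) were 312 to 329 CPM in knockout mTBI, 290 to 365 CPM in wild-type mTBI and 350 to 372 CPM in labelled sham. The 2 markers differed: Wfs1 averaged 147, 159 and 191 CPM in that order of groups, and Fibcd1 175, 158 and 168 CPM. Marker sums of dentate granule neurons (3 markers) were 194 to 262 CPM in knockout mTBI, 196 to 208 CPM in wild-type mTBI and 220 to 226 CPM in labelled sham. In that order of groups, Prox1 averaged 112, 97.4 and 118 CPM, Dsp 70.3, 56.7 and 64.5 CPM, and C1ql2 53.0, 48.5 and 40.1 CPM. None of these markers was called in any comparison. Markers of cortical and thalamic neurons from the dissection (4 markers) summed to 139 to 180 CPM in knockout mTBI, 101 to 148 CPM in wild-type mTBI and 90.5 to 92.8 CPM in labelled sham. Of these markers, 1 was called in knockout mTBI against labelled sham. They did not move together: in the same order of groups, Prkcd averaged 84.1, 62.6 and 34.7 CPM and Tcf7l2 17.8, 9.77 and 5.55 CPM. Lamp5 averaged 33.3, 42.3 and 35.3 CPM and Rorb 18.6, 17.7 and 16.2 CPM. The choroid plexus markers (5) summed to 53.3 to 3658 CPM in knockout mTBI, 3146 to 4346 CPM in wild-type mTBI and 43.9 to 45.2 CPM in labelled sham, and 3 of them were called in wild-type mTBI against labelled sham and 1 in knockout mTBI against it. No marker of these lists was at 0 in all libraries, and their part in the members' differences was not tested.

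Other early response genes, a list of 31 with 30 tested, showed no call in any comparison by edgeR. In wild-type mTBI against labelled sham, 21 of 30 were positive with a median of log2 0.23, and 9 higher and 3 lower had an unadjusted p under 0.05. Of all genes tested, 7.45% were higher and 5.79% lower by that measure. DESeq2 called Fos, Klf2, Sik1 and Per1 higher and Inhba lower there, and voom called Sik1 and Per1 higher and Bdnf and Inhba lower. Over all 20032 genes, DESeq2 called 349 higher and 192 lower in that comparison, and voom 466 higher and 256 lower. Per1, a clock gene that CREB induces, stood at 97.5, 95.1 and 108 CPM in wild-type mTBI and at 73.7, 74.1 and 75.0 CPM in labelled sham (log2 0.43, SE 0.08, adjusted p = 0.0514). Sik1, a salt-inducible kinase that restrains CREB coactivators, was at 13.0, 11.5 and 14.0 CPM in wild-type mTBI and at 8.26, 8.57 and 8.33 CPM in labelled sham (log2 0.62, adjusted p = 0.0607). For both genes every wild-type mTBI library was above every labelled sham library. So it was for the transcription factor gene Klf2 (log2 0.86, adjusted p = 0.108), while Inhba, encoding an activin subunit that activity induces, was at 6.34, 4.46 and 4.46 CPM in wild-type mTBI, below the 8.18, 9.01 and 9.63 CPM of labelled sham (log2 -0.81, adjusted p = 0.0809).

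Per1 and Sik1 were also above labelled sham without overlap in knockout mTBI, at 88.7, 87.5 and 103 CPM and at 10.8, 14.1 and 12.3 CPM. Their knockout mTBI minus labelled sham changes were log2 0.33 (adjusted p = 0.233) and 0.56 (adjusted p = 0.171). Fos, the AP-1 subunit, had the library order of Arc in wild-type mTBI, at 6.75, 3.27 and 5.32 CPM in knockout mTBI, against 15.3, 4.41 and 9.71 CPM in wild-type mTBI, and 4.08, 4.02 and 3.77 CPM in labelled sham. Between knockout and wild-type mTBI, 20 of 30 were negative with a median of log2 -0.11, and 1 higher and 5 lower had an unadjusted p under 0.05. Of all genes, 3.25% were higher and 3.35% lower by that measure. In knockout mTBI against labelled sham, 18 of 30 were positive with a median of log2 0.08. By unadjusted p, 4 were higher and 2 lower, where 4.58% and 2.62% of all genes were. Both DESeq2 and voom called Klf2 and Sik1 higher and Inhba lower there, and voom called Per1 higher as well. Over all 20032 genes, DESeq2 called 166 higher and 60 lower there, and voom 151 higher and 128 lower. Neither tool called a gene of the list between knockout and wild-type mTBI. The genes of smallest p in that last comparison were Nptx2, a secreted pentraxin, Ptgs2, the inducible cyclooxygenase, Fos, and the G protein regulator Rgs2, each at adjusted p = 0.732. Mean Nptx2 levels were 16.4 ± 3.72 CPM in knockout and 24.0 ± 3.56 CPM in wild-type mTBI (SD over 3 libraries each). Ptgs2 averaged 28.1 ± 6.84 CPM in knockout and 21.3 ± 1.22 CPM in wild-type mTBI, and Rgs2 25.9 ± 1.16 CPM in knockout and 32.2 ± 6.68 CPM in wild-type mTBI.

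Upstream kinases and factors, 21 genes, also had no call by edgeR, DESeq2 or voom, with medians of log2 -0.05 in wild-type mTBI against labelled sham and 0.0031 between knockout and wild-type mTBI. By an unadjusted p under 0.05, 2 were higher and 1 lower in wild-type mTBI than in labelled sham, where 7.45% and 5.79% of all genes were. In knockout against wild-type mTBI, 2 were lower, where 3.35% of all genes were, and none higher, where 3.25% were. None passed it between knockout mTBI and labelled sham, where 4.58% of all genes were higher and 2.62% lower. Srf, which binds the CArG box, stood at 43.0, 41.7 and 42.2 CPM in knockout mTBI, against 46.7, 47.2 and 48.1 CPM in wild-type mTBI, and 41.2, 42.6 and 41.4 CPM in labelled sham. Wild-type mTBI lay above both other groups without overlap, at adjusted p = 0.260 against labelled sham and 0.732 against knockout mTBI. The ERK pathway kinase gene Map2k2 had the same pattern, at 62.3 ± 5.12 CPM in knockout mTBI, 75.0 ± 9.33 CPM in wild-type mTBI and 61.1 ± 3.39 CPM in labelled sham. Camk2a and Camk4, CaM kinase genes, were at 3961 ± 539 and 32.6 ± 8.78 CPM in wild-type mTBI against 4641 ± 64.0 and 41.1 ± 0.802 CPM in labelled sham (adjusted p = 0.360 and 0.398). Mef2c and Elk3 differed by log2 -0.20 and 0.29 between knockout and wild-type mTBI (adjusted p = 0.732 and 0.739).

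Partners of the members' proteins, 20 genes, had no call by these 3 tools either. In wild-type mTBI against labelled sham, 14 of 20 were negative with a median of log2 -0.10, beside 0.018 over all genes tested. By an unadjusted p under 0.05, 2 were lower and none higher, where 5.79% and 7.45% of all genes were. Without overlap, 6 lay below labelled sham and 2 above it, where 11.5% and 12.4% of all genes did. Grm5, a glutamate receptor gene whose product HOMER1 binds, was at 219.7, 294 and 257 CPM in wild-type mTBI and at 319, 311 and 306 CPM in labelled sham (log2 -0.28, SE 0.10, adjusted p = 0.250). Every wild-type mTBI library was below every labelled sham library. Shank1, a scaffold that HOMER1 binds, and Arnt2, which dimerizes with NPAS4, differed by log2 -0.17 and -0.19 in wild-type mTBI against labelled sham (adjusted p = 0.411 and 0.458). Homer3, Itpr1 and Shank3 differed by log2 0.20, 0.26 and 0.18 between knockout and wild-type mTBI, at adjusted p between 0.732 and 0.739.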

How the data were processed

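Per the file headers, the authors counted reads per gene on GRCm38 with featureCounts 2.0.6, using exons from Ensembl release 98, and they deposited raw counts of 55421 genes in 9 libraries without normalization. The command held no option for counting pairs as 1 fragment or for strand, so mates were counted singly and antisense reads were not separated. No member shares exon bases with another annotated gene. Per the submitters' processing notes, HISAT2 was among the tools used, and reads were placed on mm10. Symbols, positions and exon lengths came from GENCODE M21, the same build, which matched 55240 genes.

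Counts were scaled by TMM, filtered with filterByExpr to 20032 genes and tested in edgeR 4.0.16 (R 4.3.3) by its quasi-likelihood F test, two-sided, in 1 fit of the 9 libraries with 6 residual degrees of freedom. Benjamini-Hochberg adjustment ran over the 20032 genes, and adjusted p under 0.05 made a call. SEs were the change divided by the root of F. Levels are CPM with TMM factors, and log2 CPM used a prior count of 2. Nothing in the labels beyond the count of mice says that libraries came from separate animals, so p-values measure the spread between these libraries, which may be technical, above all in labelled sham. The test was checked on simulated counts, a check that is not used as support here. The fit shared 1 spread across groups whose own coefficients of variation between libraries were unequal. These were 18.7% in knockout mTBI, 19.6% in wild-type mTBI and 3.26% in labelled sham. The members, gene lists and tests were chosen with earlier results of these data known. All members were named, with the 4 genes of smallest p per list in wild-type mTBI minus sham and in knockout minus wild-type mTBI, and the 5 genes nearest to the members' mean profile among those with a mean count of at least 20. A gene that this rule names among the partners is not reported here.

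Alternatives were RLE or no scaling, DESeq2 1.42.0, voom with sample quality weights in limma 3.58.1, no filter, a filter of 1 CPM in 3 libraries, fits of 6 libraries, a replicate block, counts divided by 2, each library left out, the injured libraries numbered 1 left out together, and the labelled sham libraries summed. Promoter sequences were RefSeq's, on GRCm38.p6.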

Additional observations from a re-analysis of the deposited data

How the results depend on the processing

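The number of genes called in wild-type mTBI against labelled sham, in knockout against wild-type mTBI and in knockout mTBI against labelled sham was 102, 3 and 14 as reported. It was 541, 18 and 226 with DESeq2, 722, 4 and 279 with voom, 676, 68 and 387 without a filter, 253, 1 and 71 with the 6 libraries compared, and 523, 24 and 337 without both injured libraries numbered 1. The stricter filter gave 64 in the first, and summing the labelled sham libraries left 1 and 0 in the comparisons that use them. Leaving out 1 library gave 5 to 252, 2 to 7 and 2 to 128. The counts with RLE, without scaling, with counts divided by 2 and with the replicate block were within 1.5 times those reported.

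The replicate numbers did not pair the libraries: the correlation of deviations between same-numbered libraries was between -0.101 and 0.0681, and 3 of 9 libraries correlated best with their own number. With the replicate block, 115, 3 and 14 genes were called, and adjusted p was 0.0792 for Nr4a2 and 0.0904 for Homer1 in knockout mTBI against labelled sham.

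Of 590 values of the members under alternatives, 548 kept direction and call, 13 lost the call, 17 gained it and 12 changed sign, none of them called in either sign. Nr4a2 in wild-type mTBI against labelled sham was log2 0.00025 with voom, 0.0017 without both injured libraries numbered 1, and -0.031 to 0.014 when 1 library was left out (wild-type mTBI replicate 1 and sham replicate 1 gave the positive values). Between knockout and wild-type mTBI, Npas4 was 0.13 with voom and -0.43 to 0.086 with 1 library left out (positive without wild-type mTBI replicate 1), and Nr4a3 was 0.019 without both numbered 1. In knockout mTBI against labelled sham, Egr4 was 0.014 with voom, 0.00092 without both numbered 1, and -0.32 to 0.054 with 1 library left out (0.0012 and 0.054 without knockout replicates 1 and 2). Egr2 was -0.20 to 0.69 with 1 library left out, negative without knockout replicate 3. The cause was not tested.

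Depth limits Egr2 most, with 24 to 220 counts per library. A design of 3 against 3 libraries, with labelled sham libraries that carry little Tmsb4x and little spread, limits every comparison against them.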
